A study of Mus musculus with 20 samples.

Results

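Polyamines are small, positively charged molecules that bind nucleic acids and are needed for translation and cell growth. Putrescine is made from ornithine, and spermidine and spermine are then built by adding aminopropyl groups, which come from decarboxylated S-adenosylmethionine. Levels in the cell are held by rapid turnover of the enzymes, by antizymes that send ornithine decarboxylase to the proteasome, and by acetylation and oxidation, which turn spermine and spermidine back towards putrescine.

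Of the 25655 genes in the deposited tables of the mouse utricle, 10 genes of polyamine synthesis and turnover were described: *Amd1*, *Amd2*, *Odc1*, *Srm*, *Sms*, *Sat1*, *Smox*, *Oaz1*, *Oaz2* and *Azin1*. The set was chosen by the fall of *Amd2* in the OVX + E2 group relative to the OVX + v group, and the other members were taken as the rest of its pathway. The comparison of these 2 groups is therefore given as a description, without a test. The utricle is an otolith organ of the inner ear. RNA of the utricle of female C57BL/6J mice was sequenced in 4 groups of 5 libraries. Mice were ovariectomized (OVX) or sham-operated at the age of 8 weeks and received a slow-release pellet of vehicle (sham + v and OVX + v), of 50 µg estradiol (OVX + E2) or of 2.4 mg raloxifene (OVX + RAL), made for release over 60 days. Tissue was taken 4 weeks after the operation. Every mouse thus carried a pellet, and only the sham + v mice kept their ovaries. Each library was made from 1 ng of RNA by a kit that reads the 3′ ends of mRNA, and held 1123053 to 2081747 counts. Levels are given as CPM, the counts scaled to the total of their library, without correction for length. CPM was thus compared between libraries. Between genes it served to pick those named or searched, not as a result. Groups are given as mean ± SD (n = 5). In bulk tissue, fewer cells of a type and less RNA per cell cannot be told apart. Each of the 7 hair cell markers and each of the 7 markers of supporting cells and the otolithic membrane was counted in all 4 groups. The labels did not say whether a library came from 1 mouse or from pooled mice, and p-values measure the spread between these libraries.

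Because *Amd2* is the member by which the set was chosen, its sequence was compared with that of *Amd1* first. Both encode S-adenosylmethionine decarboxylase, the enzyme that supplies the aminopropyl groups. On GRCm39, the deposited tables place *Amd1* at chr10:40163454-40178184 and *Amd2* at chr10:35584671-35587888, both on the minus strand and 4575565 bases apart. The GENCODE vM39 annotation gives *Amd1* 8 exons and *Amd2* 1 exon with a protein-coding sequence. Over 3198 aligned bases, the transcripts were 99.7% identical, with 10 substitutions and 2 gaps of 4 bases in all. Of these substitutions, 1 was in the coding sequence, 1 in the 5′ UTR and 8 in the 3′ UTR. Written with the *Amd1* base first and with the position counted from 1 at the 5′ end of the *Amd2* transcript, the coding substitution was G1129C. The substitution nearest to the 3′ end was T2681C, which lay 538 nt before the end of *Amd2*. Both sites are shown because bases such as these could tell reads of the pair apart, with the differing base in capitals, 5′ to 3′ on the minus strand of GRCm39.
Amd1, chr10:40166168-40166196: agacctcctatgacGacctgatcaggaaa
Amd2, chr10:35586746-35586774: agacctcctatgacCacctgatcaggaaa
Amd1, chr10:40163968-40163996: ctatttattgccctTctgttttcttggta
Amd2, chr10:35585194-35585222: ctatttattgccctCctgttttcttggta

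The ends of the transcripts are shown because a 3′ kit reads this part of a transcript. The last 28 bases of *Amd2* are set beside the matching bases of *Amd1*, with the 15 bases past the aligned stretch in capitals, which are a run of A in *Amd2*.
Amd2, chr10:35584671-35584698: aattgtctagtaaAAAAAAAAAAAAAAA
Amd1, chr10:40163445-40163472: aattgtctagtaaCATTGAGAAAGTTTT

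Upstream of the transcript start, the genes differed. In the RefSeq promoter table, on GRCm38.p6, both held the same run of 48 bases at the start of the transcript. In the 250 bases before it, 63 bases (25.2%) were identical without gaps. The 100 bases before the run are shown in lower case and the first 28 bases of the run in capitals, 5′ to 3′ on the minus strand.
Amd1, chr10:40302159-40302286: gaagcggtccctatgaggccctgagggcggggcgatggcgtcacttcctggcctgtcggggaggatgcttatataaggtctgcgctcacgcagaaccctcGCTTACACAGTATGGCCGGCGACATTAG
Amd2, chr10:35711864-35711991: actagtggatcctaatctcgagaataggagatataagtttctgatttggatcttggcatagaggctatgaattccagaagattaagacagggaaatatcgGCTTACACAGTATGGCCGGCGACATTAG

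To see how many reads could be placed, each stretch of 63 nt, the length of a read of 75 cycles after the trimming of 12 nt, was searched in the other transcript. Of the 338 windows in the last 400 nt of *Amd2*, 323 (95.6%) occurred without a mismatch in *Amd1*. No substitution lay in these 400 nt, and the windows not shared were those that reach into the run of A. The authors trimmed poly(A), so that these windows may not separate the pair either. Over the whole *Amd2* transcript, 2598 of 3156 windows (82.3%) did. In the other direction, 332 of 338 windows (98.2%) before the *Amd1* end of the deposited tables occurred elsewhere in the genome. Windows of both ends also lay in *Gm1976*, a long non-coding gene absent from the deposited tables, and where no gene is annotated. Whether reads of these places enter the sum of the pair is not known. In GENCODE vM39, the canonical *Amd1* transcript runs further and its last 400 nt occurred nowhere else. The authors mapped the reads with the default settings of their software. What these do with reads that match several genes was not given in the sources used here, so that a count of *Amd1* or *Amd2* alone is uncertain.

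**Figure D1:**
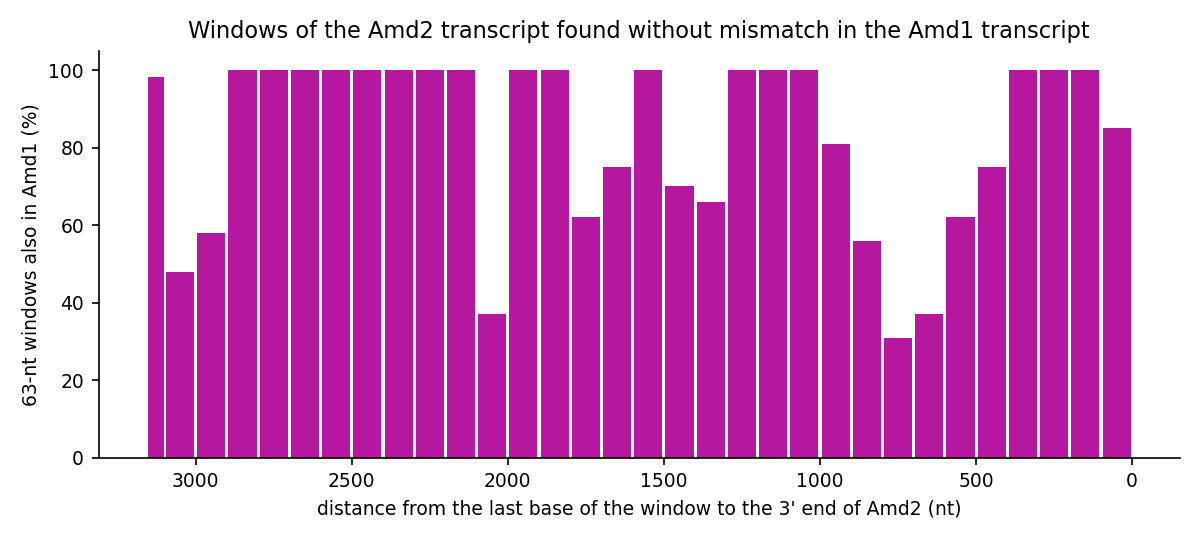
Share of 63-nt windows of the *Amd2* transcript that occur without a mismatch in the *Amd1* transcript (vertical axis, percent), by the distance of the last base of the window from the 3′ end of *Amd2* (horizontal axis, nt, in bins of 100 nt and the 3′ end on the right). All windows ending 100 to 400 nt before the 3′ end were shared, and the lowest share was 31%, at 700 to 800 nt.

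*Amd2* was counted in 5 of the 20 libraries, and most of its counts were in 3 of them. In the sham + v group, the counts were 0, 0, 0, 1029 and 0 in libraries 1 to 5. In the OVX + v group, they were 40, 0, 1090, 0 and 0 in libraries 6 to 10. In the OVX + E2 group, they were 0, 0, 5, 0 and 0 in libraries 11 to 15, and in the OVX + RAL group 0, 0, 0, 0 and 331 in libraries 16 to 20. Thus 15 of the 20 libraries had 0 counts, and the 4 groups overlapped at 0. A count of 0 allows up to 3 counts, which is 1.44 to 2.67 CPM in these libraries (counting error only). The means were 115.1 ± 257 CPM with sham + v, 129 ± 274 CPM with OVX + v, 0.802 ± 1.79 CPM with OVX + E2 and 31.8 ± 71.1 CPM with OVX + RAL, and in all groups the SD exceeded the mean. Without the highest library of each group, the means were 0 CPM, 6.23 ± 12.5 CPM, 0 CPM and 0 CPM (n = 4), an alternative chosen after the values were seen.

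*Amd1* was counted in all 20 libraries, and it was low in libraries 4 and 8, which held the most *Amd2*, but also in libraries 5 and 18, which had no count of *Amd2*. In the sham + v group, *Amd1* was 1149, 1212, 1156, 410.4 and 798 CPM in libraries 1 to 5. In the OVX + v group, it was 1283, 1276, 534, 1570 and 1431 CPM in libraries 6 to 10. The lowest value of each of these groups was in the library with the highest *Amd2*. *Amd1* was 1714, 1073, 1044, 1256 and 1011 CPM in libraries 11 to 15 of the OVX + E2 group. In the OVX + RAL group, it was 1218, 1268, 508, 1232 and 1046 CPM in libraries 16 to 20. Here library 18 was low without a count of *Amd2*, and library 20, which had *Amd2*, was the lowest of the others. The share of *Amd2* in the counts of both genes was 58.4% in library 4 (95% Wilson interval 56.1% to 60.7%), 53.6% in library 8 (51.5% to 55.8%), 13.2% in library 20 (11.9% to 14.6%), 1.91% in library 6 and 0.383% in library 13. The intervals cover counting error only: amplified reads are not independent molecules, and the intervals do not cover the assignment of reads shared by the pair.

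**Figure D2:**
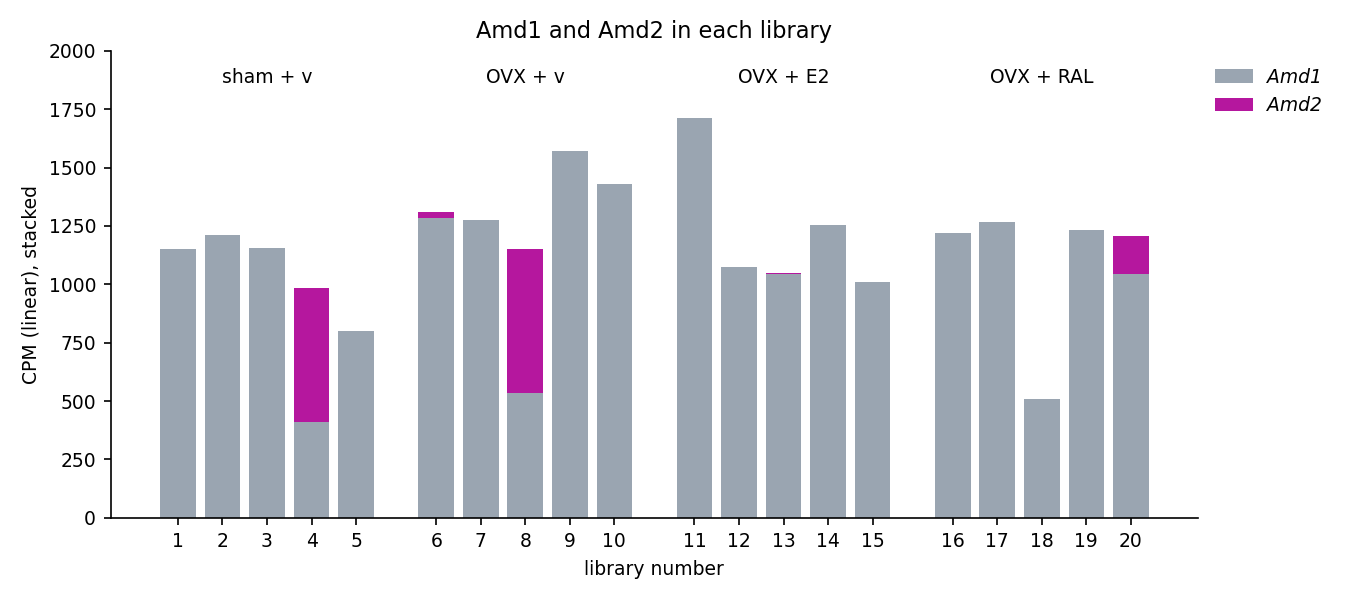
CPM (vertical axis, linear) of *Amd1* (grey) and *Amd2* (magenta) stacked in each of the 20 libraries (horizontal axis, library number, by group). *Amd2* took 58.4% of the stack in library 4, 53.6% in library 8 and 13.2% in library 20, and the summed heights of libraries 4 and 8 lay nearer to those of their groups than *Amd1* alone did.

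The sum of *Amd1* and *Amd2* varied less than *Amd1* alone in the groups that held most of the *Amd2* counts. With the sum, the coefficient of variation went from 36.1% to 16% in the sham + v group and from 32.9% to 11.8% in the OVX + v group. With the sum, library 4 was no longer the lowest of its group, at 986 CPM against 798 CPM in library 5, while library 8 was still the lowest of its own, at 1152 CPM. The coefficient was 24.0% and 23.9% in the OVX + E2 group and 30.1% and 29.9% in the OVX + RAL group, for *Amd1* and for the sum. The summed levels were 1060 ± 169 CPM with sham + v, 1347 ± 159 CPM with OVX + v, 1220 ± 292 CPM with OVX + E2 and 1086 ± 324 CPM with OVX + RAL.

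The *Amd2* counts of the OVX + v group, by which the set was chosen, are part of its sum, so that the sum is given without a test against this group. As a description, the mean log2(CPM + 1) of the sum was lower than in the OVX + v group by a difference of -0.35 in the sham + v group, with 3 of 5 sham + v libraries below all OVX + v libraries, and of -0.38 in the OVX + RAL group. With 1 library left out, the differences ranged from -0.41 (without library 8) to -0.26 (without library 5) and from -0.45 (without library 17) to -0.12 (without library 18). The OVX + RAL group was compared with the sham + v group by a two-sided exact permutation test, whose smallest p with 252 groupings is 0.00794. The difference was -0.02 (exact permutation p = 0.992, and 0.992 after adjustment over the 3 pairs of groups computed). Library 18 decided this result: without it, the OVX + RAL group was higher by 0.23 (exact permutation p = 0.032 unadjusted and 0.0476 adjusted, over the alternatives 0.0476 to 1.00 adjusted). The adjustment also draws on the pairs with OVX + v, which are no test here, so that no call is made from it.

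In the comparison by which the set was chosen, the log2 fold change of *Amd2* in the OVX + E2 group relative to the OVX + v group was -7.22 by edgeR. Of the 1130 *Amd2* counts of the OVX + v group, 1090 were in library 8, and the OVX + E2 group had 5 counts in all. Of the 13695 genes fitted in this pair, 0.0584% were called by edgeR. No call is given for a member, since the choice of *Amd2* rests on these values. The groups of each member overlapped, and those of 0.832% of the genes fitted did not. The other 9 members had log2 fold changes between -0.69 (*Srm*) and 0.14 (*Odc1*), and *Amd1* had 0.0011. The median was -0.21 over the members and -0.06 over all genes tested. TMM factors moved the median of all genes to -0.17 and the values of *Amd1*, *Sat1* and *Oaz2* from 0.0011, 0.05 and 0.10 to -0.11, -0.06 and -0.0041. Summed markers of Schwann cells and myelin were 2115 to 4019 CPM in the OVX + E2 libraries and 1646 to 2726 CPM in the OVX + v libraries. Their part in these values was not tested.

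For the comparisons with a test, edgeR was fitted to each pair of groups over all genes, and adjusted p-values were taken over all of them. *Amd2* was left without a test against the OVX + v group, since its values there entered the choice. In the comparison of sham + v with OVX + v, 0 of the other 9 members passed an adjusted p of 0.05, where 0.0145% of 13825 genes did. In that of OVX + RAL with OVX + v, 0 of these 9 passed, where 0.0286% of 14002 genes did. In that of OVX + RAL with sham + v, which shares no library with the comparison used for the choice, 0 of 10 passed, where 0.0648% of 13883 genes did. DESeq2 called 0 of the other 9 members in each and gave no p for *Amd2* in any of them. At an unadjusted p of 0.05, the counts of members were 0 of 9, 0 of 9 and 1 of 10, and the 1 was *Amd2*, where 12.5%, 12.1% and 13% of all genes tested were below it. With so few genes called in all, counts of 0 members stand at the background. The groups of each member overlapped in all 3 comparisons, where 0.499%, 0.578% and 0.691% of the genes tested had groups that did not overlap.

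Relative to sham + v, the edgeR log2 fold change of *Amd2* with OVX + RAL was -1.85 (standard error, SE, 0.84, adjusted p = 0.358). The call changed without library 20 (adjusted p = 3.88e-10, edgeR), where all OVX + RAL libraries left were at 0. Only library 4 of the sham + v group held counts. This p thus rests on 1 library and does not measure the spread between libraries. The sign changed without library 4, where all sham + v libraries left were at 0 (8.88, no measured fold). As a description, the value relative to OVX + v was -2.01 for OVX + RAL and -0.16 for sham + v. With 1 library left out, that of sham + v ranged from -10.80 without library 4, where all sham + v libraries were at 0 and the value is no measured fold, to 4.20 without library 8. That of OVX + RAL turned to 2.34 without library 8. For *Amd1*, sham + v differed from OVX + v by -0.37 on the log2 scale (SE 0.20, adjusted p = 0.530, edgeR). With 1 library left out, this ranged from -0.56 (without library 8) to -0.18 (without library 4). *Amd1* may share reads with *Amd2*, whose OVX + v values entered the choice, so that this test may not be independent of it.

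The levels of cell type markers in the libraries with most *Amd2* are given beside it. The summed level of the 7 hair cell markers was the lowest of its group in libraries 4, 8 and 20. It was 629 CPM in library 4 and 833 to 1489 CPM in the other sham + v libraries, 425 CPM in library 8 and 667 to 1222 CPM in the other OVX + v libraries, and 596 CPM in library 20 and 646 to 994 CPM in the other OVX + RAL libraries. Of 8 marker lists, 2 lay outside the range of the group's other libraries in library 4, 4 in library 8 and 4 in library 20. In the 17 other libraries this number was 1 to 7, with a median of 3, a range that holds the counts of libraries 4, 8 and 20. The summed level of Schwann cell and myelin markers was 2726 CPM in library 8, where the others of the group had 1646 to 2486 CPM, and 2192 CPM in library 20, where the others had 1735 to 1993 CPM. It was within the range of the group in library 4. Other lists also lay below the range of the group's other libraries. These were supporting cells and otolithic membrane in library 4, melanocytes and bone in library 8, and skeletal muscle and bone in library 20. Whether these markers bear on the *Amd2* counts was not tested.

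**Figure D3:**
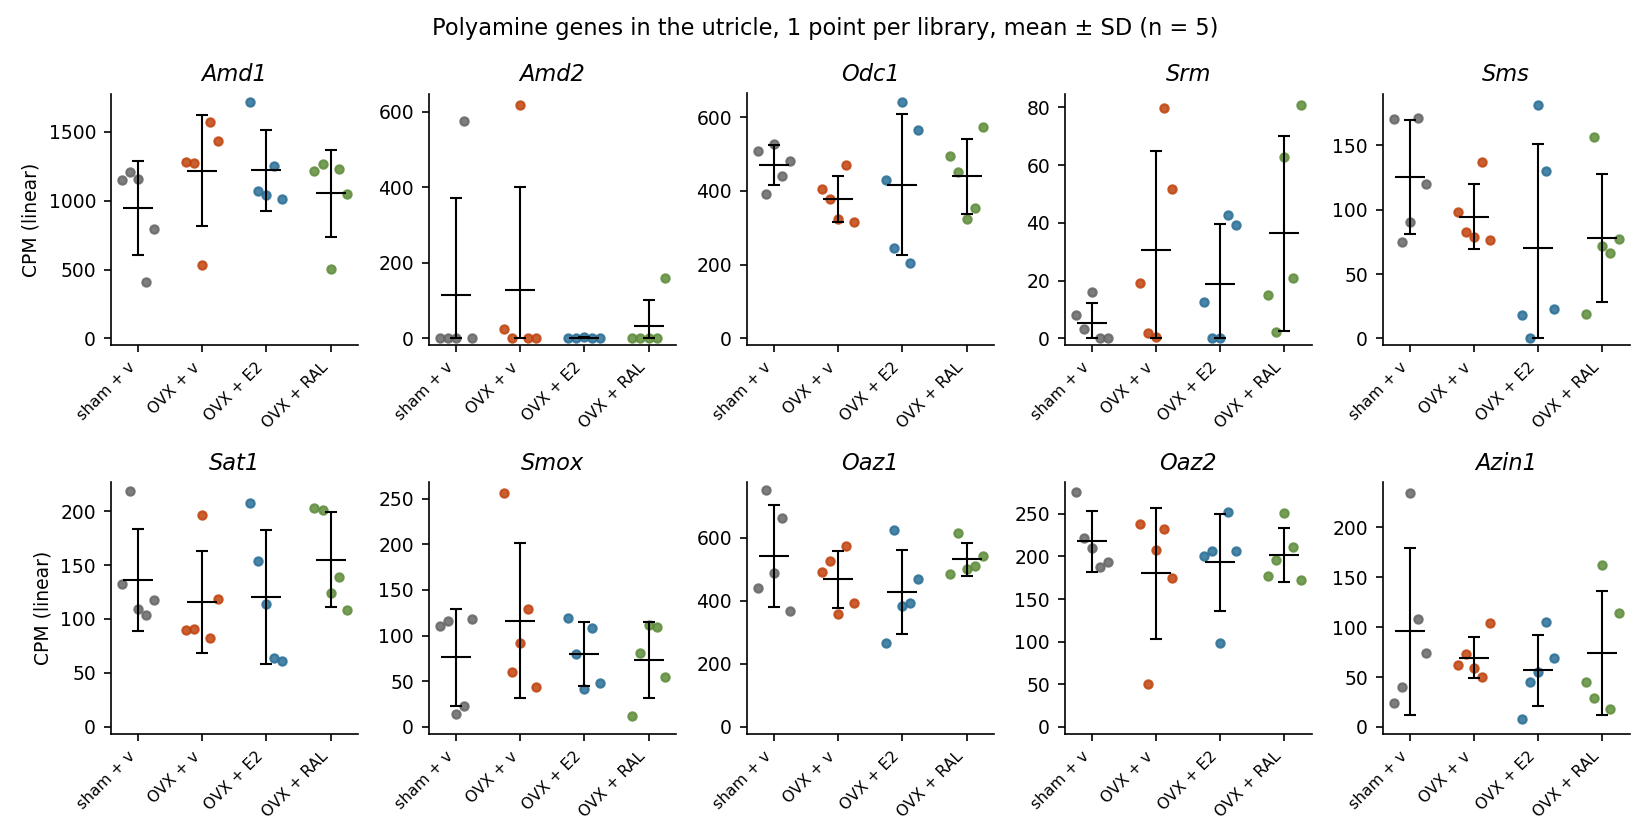
CPM (vertical axes, linear, each panel with its own scale) of the 10 members in every library (points, coloured by group, in the order of the library numbers), with the mean and SD of each group (bars, cut at 0). *Amd2* lay between 0 and 24.9 CPM in all but 3 libraries, and for every member the points of the 4 groups overlapped.

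*Odc1* encodes ornithine decarboxylase, which makes putrescine and is the first enzyme of the pathway. It was 508, 392, 527, 439 and 482 CPM in the sham + v libraries and 404, 379, 324, 469.5 and 316 CPM in the OVX + v libraries. It was 430 CPM in library 11 and 245, 642, 204 and 565 CPM in libraries 12 to 15 of the OVX + E2 group. It was 494, 450.3, 322, 355 and 574 CPM in the OVX + RAL libraries. The spread was the narrowest in the sham + v group, at 469 ± 54.6 CPM, and the widest in the OVX + E2 group, at 417 ± 192 CPM. In 3 of 5 sham + v libraries, *Odc1* was above all OVX + v libraries. The log2 fold change of the sham + v group relative to the OVX + v group was 0.31 and did not pass the test.

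*Srm* and *Sms* encode spermidine synthase and spermine synthase, which add the first and the next aminopropyl group. *Srm* was low, with 0 to 168 counts, and 15 of 20 libraries had at least 3 counts. It was 8.28, 3.15, 16, 0 and 0 CPM in the sham + v libraries and 19.3, 1.88, 0.567, 79.7 and 51.6 CPM in the OVX + v libraries. It was 12.6, 0, 0, 42.7 and 39.3 CPM in the OVX + E2 libraries and 14.9, 2.15, 62.9, 21.0 and 80.7 CPM in the OVX + RAL libraries. Every group held libraries of 2.15 CPM or less, and the highest sham + v value was 16 CPM, below the highest value of each OVX group. By edgeR, the log2 fold change of *Srm* was -2.46 for sham + v relative to OVX + v (SE 1.81, adjusted p = 0.929) and 2.71 for OVX + RAL relative to sham + v (SE 1.66, adjusted p = 0.678). With 1 library left out, the first ranged from -3.38 (without library 3) to -1.73 (without library 9) and the other from 2.19 (without library 20) to 3.63 (without library 3).

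*Sms* was 171, 75.1, 90.7, 171 and 120.0 CPM in the sham + v libraries and 98.4, 82.8, 78.8, 137 and 76.7 CPM in the OVX + v libraries. It was 17.9, 0, 181, 130.0 and 23.2 CPM in the OVX + E2 libraries and 19, 157, 71.7, 66.6 and 76.9 CPM in the OVX + RAL libraries. The OVX + E2 group held both the lowest and the highest *Sms* value of all libraries, and 3 of its libraries were below all OVX + v libraries. The log2 fold change of *Sms* in the tested comparisons lay between -0.68 and 0.41. With 1 library left out, that of OVX + RAL relative to sham + v ranged from -1.10 (without library 17) to -0.43 (without library 16). That of OVX + RAL relative to OVX + v ranged from -0.69 to -0.03, without the same libraries.

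*Sat1* encodes spermidine and spermine N1-acetyltransferase, the enzyme that starts the return towards putrescine, and *Smox* encodes spermine oxidase. *Sat1* was 136 ± 47.5 CPM with sham + v, 116 ± 47.4 CPM with OVX + v, 120.0 ± 62.1 CPM with OVX + E2 and 155 ± 44.0 CPM with OVX + RAL. Its lowest value was 61.0 CPM in library 15 and its highest 219 CPM in library 2, where the other sham + v libraries reached 132 CPM. *Smox* was 76.6 ± 53.1 CPM, 116 ± 84.8 CPM, 79.5 ± 34.9 CPM and 73.6 ± 41.5 CPM, in the same order. It varied about as much within groups as over all libraries, with a highest value of 256 CPM in library 6 and a lowest of 12.3 CPM in library 16. The log2 fold change of *Smox* relative to the OVX + v group was -0.60 (SE 0.56) for the sham + v group and -0.66 (SE 0.51) for the OVX + RAL group, with adjusted p = 1.00 and 0.962 by edgeR. Without library 6, these values were -0.08 and -0.14.

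*Oaz1* and *Oaz2* encode antizymes, which bind ornithine decarboxylase and lower polyamine uptake, and *Azin1* encodes the antizyme inhibitor, which takes antizymes away from the enzyme. *Oaz1* was 542 ± 160.3 CPM with sham + v, 468 ± 90.4 CPM with OVX + v, 427 ± 132 CPM with OVX + E2 and 531 ± 51.4 CPM with OVX + RAL. *Oaz2* was 218 ± 35.5 CPM, 180.4 ± 76.7 CPM, 193 ± 56.7 CPM and 201 ± 31.5 CPM, in the same order. Both antizymes were counted in every library and were among the least variable members, with a coefficient of variation over the 20 libraries of 23.8% and 25.6%. The low value of the OVX + v group of *Oaz2* came from library 7, at 50.8 CPM, where the others of the group lay between 174 and 238 CPM. *Azin1* was 96.0 ± 83.7 CPM, 69.6 ± 20.9 CPM, 56.6 ± 35.4 CPM and 73.8 ± 62.1 CPM, and reached 234 CPM in library 3 and 163 CPM in library 18. Without library 3, the log2 fold change of *Azin1* in the sham + v group relative to the OVX + v group went from 0.46 to -0.18.

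**Figure D4:**
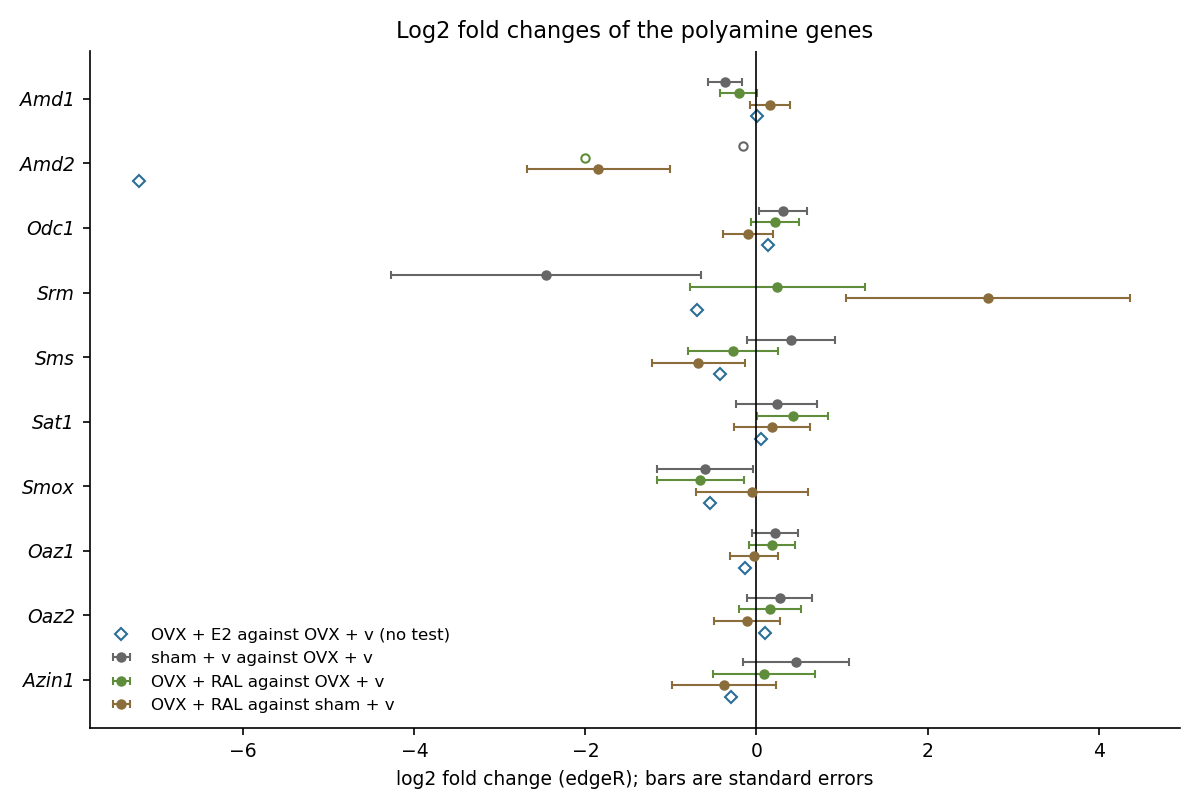
Log2 fold change (horizontal axis) of the 10 members by edgeR in the 3 tested comparisons (filled points with standard errors as bars) and in the OVX + E2 group relative to the OVX + v group, by which the set was chosen (open diamonds, no error and no test). *Amd2* relative to OVX + v is shown by open points, without error or test. The values of *Odc1*, *Sms*, *Sat1*, *Smox*, *Oaz1*, *Oaz2*, *Azin1* and *Amd1* lay between -0.68 and 0.46 in the 3 tested comparisons, and those of *Amd2* and *Srm* reached further.

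The median log2 fold change of the members was 0.22 in the sham + v group relative to the OVX + v group, 0.12 in the OVX + RAL group relative to the OVX + v group and -0.08 in the OVX + RAL group relative to the sham + v group. The medians of all genes tested were -0.02, -0.03 and -0.02. The first 2 comparisons share the OVX + v libraries, which also entered the choice of *Amd2*.

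Other members also shared stretches of their 3′ ends with other places in the genome. Of the 63-nt windows in the last 400 nt of the transcript, 81.1% occurred elsewhere in the GRCm39 genome for *Odc1*, 79.3% for *Oaz1*, 60.9% for *Oaz2*, 52.1% for *Sat1* and 1.18% for *Srm*. None did for *Sms*, *Smox* and *Azin1*. As for *Amd1*, the annotated genes of *Srm*, *Smox* and *Azin1* ran further than in the deposited tables. Their deposited ends were not searched. The copies of *Oaz2* lay within *Manba*, those of *Odc1* partly within *Banp*, those of *Sat1* partly within *Dnajb6*, and those of *Oaz1* within its processed pseudogene *Oaz1-ps* and 2 long non-coding genes. *Manba*, which encodes a lysosomal mannosidase and was named after its values were seen, had 42 counts in library 4 and 43 in library 8. In the other 18 libraries it had at most 4. Libraries 4 and 8 are also those with the most counts of *Amd2*, and the part of read assignment in either was not tested.

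**Figure D5:**
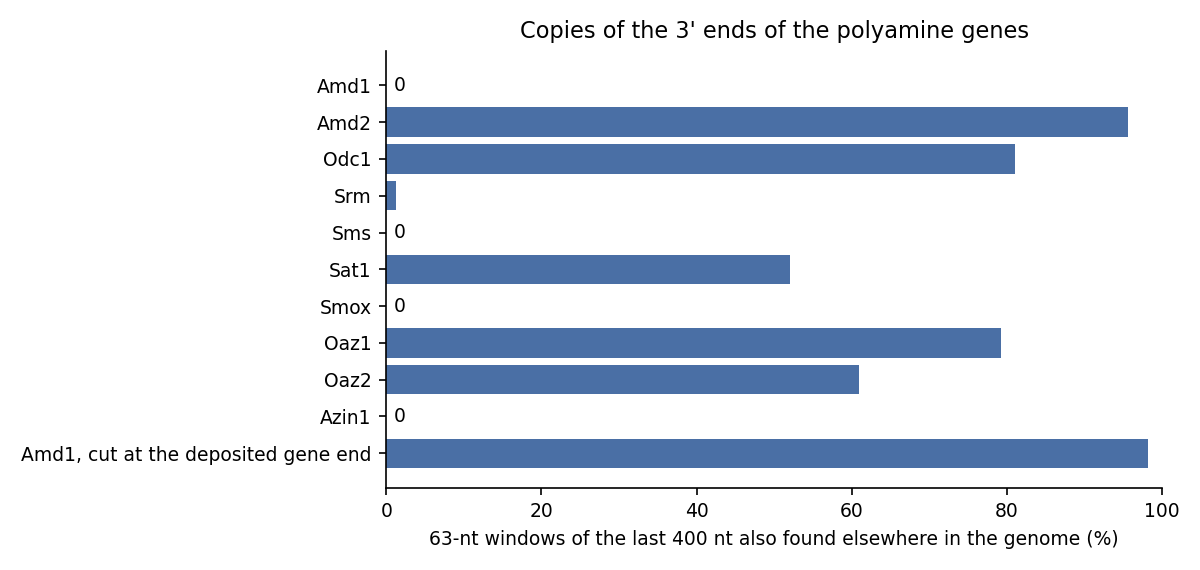
Share of 63-nt windows in the last 400 nt of each transcript that also occur elsewhere in the genome without a mismatch (horizontal axis, percent), for the canonical transcripts of the 10 members and for *Amd1* ending where the deposited tables end it. *Amd2* stood at 95.6% and *Amd1* at 98.2% with the deposited end and at 0 with the longer one.

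The other genes of the pathway were taken from a list of 27. *Mat1a*, *Satl1* and *Oaz3* had no count in any library. None of the 21, 20 and 22 genes tested for sham + v against OVX + v, OVX + RAL against OVX + v and OVX + RAL against sham + v passed the threshold by edgeR, and 1, 2 and 3 had an unadjusted p under 0.05, against 12.5%, 12.1% and 13% of all genes tested, so that these counts stand near or below the background. Their median log2 fold changes were 0.24, -0.15 and 0.01.

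Among the genes that feed the pathway, *Oat* encodes ornithine aminotransferase and *Slc7a1* a carrier of cationic amino acids. *Oat* was counted in all libraries at 149 ± 45.5 CPM (n = 20), and *Slc7a1* in 17 libraries at 36.6 ± 29.6 CPM. *Mat2a*, the catalytic subunit of the methionine adenosyltransferase that makes S-adenosylmethionine, was 264 ± 123 CPM. Its regulatory subunit *Mat2b* had the smallest p among the genes that were lower in the sham + v group than in the OVX + v group. *Mat2b* was 6.82, 19.9, 6.52, 4.47 and 5.31 CPM in the sham + v libraries and 60.4, 65.9, 23.2, 72.3 and 48.8 CPM in the OVX + v libraries. These groups did not overlap, as in 0.297% of the 13825 genes tested, which were lower in all sham + v libraries than in all OVX + v libraries. The log2 fold change of *Mat2b* was -2.64 (SE 1.30) and had an adjusted p of 0.363 by edgeR. *Mat2b* was 15.9, 116, 0, 96.2 and 37.9 CPM in the OVX + E2 libraries and 33.4, 32.9, 19.4, 6.82 and 36.0 CPM in the OVX + RAL libraries, both of which overlapped with the sham + v group.

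The salvage of methylthioadenosine, the by-product of both synthases, was represented by *Adi1* at 55.0 ± 27.6 CPM and *Apip* at 35.0 ± 30.0 CPM over the 20 libraries. Of the other oxidation and acetylation genes, *Paox*, a polyamine oxidase, was 12.8 ± 14.1 CPM, and *Sat2* was 7.5 ± 14.1 CPM. The transporters *Atp13a2*, a lysosomal polyamine exporter, and *Slc18b1*, a vesicular carrier, were 40.0 ± 34.9 CPM and 25.2 ± 22.7 CPM. *Eif5a*, whose protein carries the hypusine made from spermidine, was 238 ± 55.6 CPM, and *Dohh*, an enzyme of hypusine formation, was 39.9 ± 28.2 CPM. Except for *Eif5a*, each of these 8 genes had an SD over the libraries of more than 50% of its mean.

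The genes with the smallest p in the other directions rested on a few libraries. *Slc12a8* had 48 counts in library 2, 1 count in library 7 and in library 17, and 0 elsewhere. *Azin2* had 22 counts in library 13 of the OVX + E2 group and 24 in library 17 of the OVX + RAL group, and 0 elsewhere. *Dhps*, which starts hypusine formation, had 38, 1, 1, 0 and 46 counts in the sham + v libraries, 82 in library 6 and 0 in the other OVX + v libraries, and 0 in all OVX + RAL libraries. No fold change is given for these genes, since 1 group of each comparison had at most 1 count in every library, and their smallest adjusted p was 0.358 (edgeR).

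In likeness over the 20 libraries, by the Pearson correlation of log2(CPM + 1) among 9533 genes with a mean of at least 10 CPM, the genes nearest to *Amd2* were *Capn6* (0.64), *Ate1* (0.62) and *Ndor1_1* (0.62). Those nearest to *Odc1* were *Eapp* (0.87), *Naa35* (0.81) and *Rnf103* (0.78). These are descriptions over libraries that share groups, and for *Amd2* they rest on the 5 libraries in which it was counted. *Capn6* had its highest counts in libraries 8 and 4, with 151 and 98. *Ate1*, an arginyltransferase, had its highest counts in libraries 4 and 8, with 338 and 306, and at most 191 in the others. Among the members themselves, the strongest relations were between *Amd2* and *Amd1* (-0.61) and between *Azin1* and *Sat1* (-0.52).

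In the RefSeq promoters on GRCm38.p6, which were found for 8 of the 10 members, the letters CACGTG, the E-box bound by Myc, occurred on either strand in 1 member, *Sms*, and in 7.15% of 32851 promoters. The estrogen response element GGTCANNNTGACC occurred in 0 of 8 members and in 0.07% of all promoters. A match is only a match of letters within 250 bases before and 50 bases after the start.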

How the data were processed

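RNA of the utricle was sequenced in 20 libraries of 4 groups, assigned from the labels, with replicates named by the library numbers of the labels. The authors trimmed adaptors, poly(A), low-quality ends and the first 12 nucleotides, left out reads shorter than 20 nucleotides, mapped the rest to GRCm39 and counted them per gene in CLC Genomics Workbench (version not given in the sources used here). The deposited total counts are raw whole-number counts per gene; they sum to 1123053 to 2081747 per library, so that a count of 0 allows up to 1.44 to 2.67 CPM. Deposited CPM, TPM and RPKM columns were not used, nor were the authors' own comparisons, which hold fold changes, p-values and FDR values.

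The members and lists were chosen with earlier results of these data known. CPM was computed from library totals. Groups were compared in pairs with the quasi-likelihood test of edgeR 4.0.16 in R 4.3.3, with the total count as library size, genes of at least 10 summed counts and Benjamini-Hochberg adjustment. Standard errors were obtained as the absolute log2 fold change over the root of the F statistic. Summed *Amd1* and *Amd2* were tested by exact permutation in scipy 1.17.1. The p-values against OVX + v entered the adjustment but are not given, since *Amd2* of that group entered the choice of the set. Alternatives were TMM factors, DESeq2 1.42.0, other filters, limma 3.58.1 on log2(CPM + 1), a robust fit, a fit of all groups, a pseudocount of 0.1 and the omission of each library. Of the other pathway genes, those named had the 2 highest mean CPM of their list, passed the threshold or had the smallest p in a direction. Sequences came from GENCODE vM39 on GRCm39, the assembly of the deposited coordinates, and from RefSeq. The scripts were tested on simulated data. 1 gene of the pathway list is not reported here.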

Additional observations from a re-analysis of the deposited data

Results flagged for a closer look

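In 7 of the 44 groups of 5 values examined (10 members and the sum of *Amd1* and *Amd2* in 4 groups), 1 library lay far from the others, with a gap to its neighbour above 0.710 of the range of the group. Chance flags about 1 in 20 groups of continuous values. This rate does not hold for *Amd2*, where 4 of 5 libraries were at 0 in 3 groups, and *Amd1* and the sum are not independent. For *Amd2*, the library was the highest of each group, with 575 CPM in library 4 of the sham + v group, 618 CPM in library 8 of the OVX + v group, 4.01 CPM in library 13 of the OVX + E2 group and 159 CPM in library 20 of the OVX + RAL group. *Amd1* was low in library 8 of the OVX + v group, at 534 CPM, where the next value was 1276 CPM. The sum of *Amd1* and *Amd2* was low in library 18 of the OVX + RAL group, at 508 CPM, where the next value was 1205 CPM. *Sat1* was high in library 2 of the sham + v group, at 219 CPM, where the next value was 132 CPM.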

How the results depend on the processing

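The number of members past the threshold was 0 under TMM factors, DESeq2, both filters, limma, the robust fit and the fit of all groups, but *Amd2* had no p under DESeq2 and was removed by filterByExpr. With 1 library left out it ranged from 0 to 1 in each comparison, and the 1 was *Amd2*, without libraries 4 or 8 (sham + v against OVX + v) or 20 (both OVX + RAL comparisons). Its calls against the OVX + v group are no test, since those values entered the choice of the set. Its call against the sham + v group rested on the counts of library 4 alone. Of the 30 log2 fold changes of members, 19 kept their sign under every alternative and 11 did not. Under TMM factors, DESeq2 and limma, *Oaz1* (OVX + RAL against sham + v) was 0.0483, 0.00106 and 0.0154. Under limma, *Azin1* (OVX + RAL against OVX + v) was -0.32 and *Smox* (OVX + RAL against sham + v) 0.0780.

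With 1 library left out, the values that changed sign ranged as follows. In the sham + v against OVX + v comparison, *Amd2* ranged from -10.80 to 4.20 and *Azin1* from -0.18 to 0.71. In the OVX + RAL against OVX + v comparison, *Amd2* ranged from -10.82 to 2.34, *Srm* from -0.28 to 0.99, *Oaz2* from -0.0799 to 0.28 and *Azin1* from -0.43 to 0.33. In the OVX + RAL against sham + v comparison, *Amd1* ranged from -0.0329 to 0.33, *Amd2* from -10.71 to 8.88, *Oaz1* from -0.14 to 0.12, *Azin1* from -0.90 to 0.26 and *Smox* from -0.32 to 0.22. The *Amd2* values of -10.80, -10.82, -10.71 and 8.88 were fitted with 1 group at 0 in every library and are no measured folds.

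For the sum of *Amd1* and *Amd2*, the difference with 1 library left out ranged from -0.41 to -0.26 (sham + v against OVX + v), from -0.45 to -0.12 (OVX + RAL against OVX + v) and from -0.12 to 0.23 (OVX + RAL against sham + v). The last was 0.0534 with TMM factors and 0.0350 by edgeR on the summed counts. The cause of these changes was not tested. No paired analysis was made, since the labels give no pairing of libraries. Depth limited the values at 0 counts, each of which allows up to 1.44 to 2.67 CPM.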
